A study of Mus musculus with 4 samples.

Results

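The vascular endothelial growth factor (VEGF) system was followed through 9 genes chosen by their place in it, as ligands, receptors and coreceptors. They are the ligands Vegfa, Vegfb, Vegfc and Pgf, the receptor tyrosine kinases Flt1, Kdr and Flt4, and the coreceptors Nrp1 and Nrp2, out of 47729 genes in the table. All 9 exceeded a mean of 1 RPM (reads per 1000000) over the libraries and were tested.

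The question put to the data was how ligands and receptors differed between tumors made or not made to express chemerin, a chemoattractant protein. LLC (Lewis lung carcinoma) cells, a mouse tumor line of C57BL/6 origin, were grafted under the skin of the back of C57BL/6 mice, and whole tumors were taken on day 5. LLC-Chem cells had been transfected with a pEFIN plasmid encoding murine chemerin (1-157), which the labels call full size and the study's text describes as already processed and active without further clipping. The LLC-WT group is labelled wild type, as the study's legend for these data also has it, while its text on the making of the lines speaks of cells that received the empty vector and of individual clones picked after selection, so that a difference between clones and an effect of chemerin cannot be told apart. Each group had 2 libraries, each a pool of 3 tumors, and the p-values measure the spread between these pools only.

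VEGF ligands are secreted dimers that bind tyrosine kinase receptors found mainly on the endothelial cells of blood and lymphatic vessels. VEGF-A signals chiefly through VEGFR2 (encoded by Kdr), VEGF-B and placental growth factor bind VEGFR1 (Flt1), and VEGF-C acts on VEGFR3 (Flt4) and, once processed, on VEGFR2. Tumor cells and macrophages are common sources of ligand, hypoxia induces Vegfa through HIF transcription factors, and the neuropilins, which also bind class 3 semaphorins, are made by many cell types.

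The pools held 28470000 to 33990000 reads, as fitted from the spacing of the deposited values, so that 3 reads, the smallest amount taken as shown, equal 0.088 to 0.105 RPM (counting error only). Rarres2, the gene of chemerin itself, measured 102.2 and 98.2 RPM in the LLC-WT pools and 105.9 and 105.8 RPM in those labelled LLC-Chem (log2 fold change 0.08, adjusted p = 0.541, limma with Benjamini-Hochberg adjustment). It therefore does not check the labels, and 33.6% of its exon bases lie under exons of Lrrc61. Of the 6 lung epithelium markers, Nkx2-1 was at 0 in every pool, Sftpc reached 0.10 RPM and Epcam 0.20 RPM, while Krt8 and Krt18 stood at 82.8 RPM or more. The tissue thus carried keratin transcripts but almost none of the lung-defining ones, and markers of muscle, fat and skin were low, with summed levels of at most 0.50, 5.60 and 4.45 RPM.

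Sequence from just upstream of the start site is shown for the ligands with the greatest differences, Vegfa and Vegfc, and for Kdr and Flt1, the pair of receptors that parted. Each is 250 bases, 5′ to 3′ on the gene's strand, up to the base before the RefSeq start, on GRCm38. Capitals mark every match, on either strand, to the hypoxia response cores ACGTG and GCGTG and to GGAA, the core bound by E26 (ETS) transcription factors, many of which act in endothelial cells. A GCGTG and a GGAA that touch in Kdr appear as one run of capitals.
Vegfa (chr17:46032378-46032627, minus strand): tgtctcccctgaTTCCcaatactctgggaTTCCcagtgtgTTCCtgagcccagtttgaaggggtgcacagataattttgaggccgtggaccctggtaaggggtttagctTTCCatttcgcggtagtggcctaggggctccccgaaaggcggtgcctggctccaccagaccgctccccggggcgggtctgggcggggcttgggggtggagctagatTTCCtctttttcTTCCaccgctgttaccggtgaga
Vegfc (chr8:54077282-54077531, plus strand): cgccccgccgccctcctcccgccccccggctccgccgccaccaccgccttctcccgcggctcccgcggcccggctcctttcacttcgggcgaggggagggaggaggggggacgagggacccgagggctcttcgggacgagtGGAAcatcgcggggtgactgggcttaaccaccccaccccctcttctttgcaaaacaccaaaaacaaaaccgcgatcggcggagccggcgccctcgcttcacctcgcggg
Kdr (chr5:75978456-75978705, minus strand): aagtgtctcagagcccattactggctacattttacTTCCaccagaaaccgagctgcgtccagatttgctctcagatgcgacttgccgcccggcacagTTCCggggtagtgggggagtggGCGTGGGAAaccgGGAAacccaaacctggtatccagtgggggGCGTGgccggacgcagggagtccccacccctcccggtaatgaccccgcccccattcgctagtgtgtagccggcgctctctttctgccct
Flt1 (chr5:147726012-147726261, minus strand): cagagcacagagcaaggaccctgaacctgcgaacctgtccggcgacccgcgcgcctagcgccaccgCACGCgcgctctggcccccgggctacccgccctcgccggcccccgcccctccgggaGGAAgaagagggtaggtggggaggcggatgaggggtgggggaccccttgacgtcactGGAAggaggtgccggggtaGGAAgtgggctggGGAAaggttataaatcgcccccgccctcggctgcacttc
Of 32851 RefSeq windows of this length, 38.6% held ACGTG or GCGTG and 93.4% held GGAA, at a median of 3 per window. The Kdr window had GCGTG at 131 and 89 bases before the start and 4 GGAA, and the Flt1 window had GCGTG at 184 bases and also 4 GGAA. At least 4 GGAA were found in 33.4% of windows. The Vegfa window shown had no hypoxia core and 6 GGAA, a number reached by 8.69% of windows. Sequence farther upstream was not searched, so a core there would not be seen. RefSeq gives Vegfa a second start, whose window (chr17:46025164-46025413), mostly within exons and not shown for that reason, held 1 ACGTG and 1 GCGTG. The Vegfc window held a single GGAA at 109 bases. These matches describe the letters alone. Whether any of them bears on the level of its gene was not tested.

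Ligand transcripts were higher and 2 of the 3 receptor transcripts were lower in LLC-Chem tumors. Vegfb and Vegfc rose, that is, 2 of 4 ligands passed an adjusted p of 0.05, where 9.54% of the 13694 genes tested were called higher. Kdr and Flt4 fell, that is, 2 of 3 receptors, where 13.5% of all genes were called lower. Of these calls that of Flt4 is not independent of the filter on low values, which it passed through its LLC-WT level alone. Both LLC-Chem pools lay above both LLC-WT pools for 4 of 4 ligands, against 33.1% of all genes, and below them for 2 of 3 receptors, against 39.3% of all genes. Flt1 and both neuropilins overlapped between the groups. Differences are given as log2 fold changes of RPM + 0.5 from limma, two-sided, with Benjamini-Hochberg adjustment over all genes tested, a scale that understates the change of weakly expressed genes. For any gene taken alone, permuting 2 pools against 2 gives no p under 0.33.

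**Figure D1:**
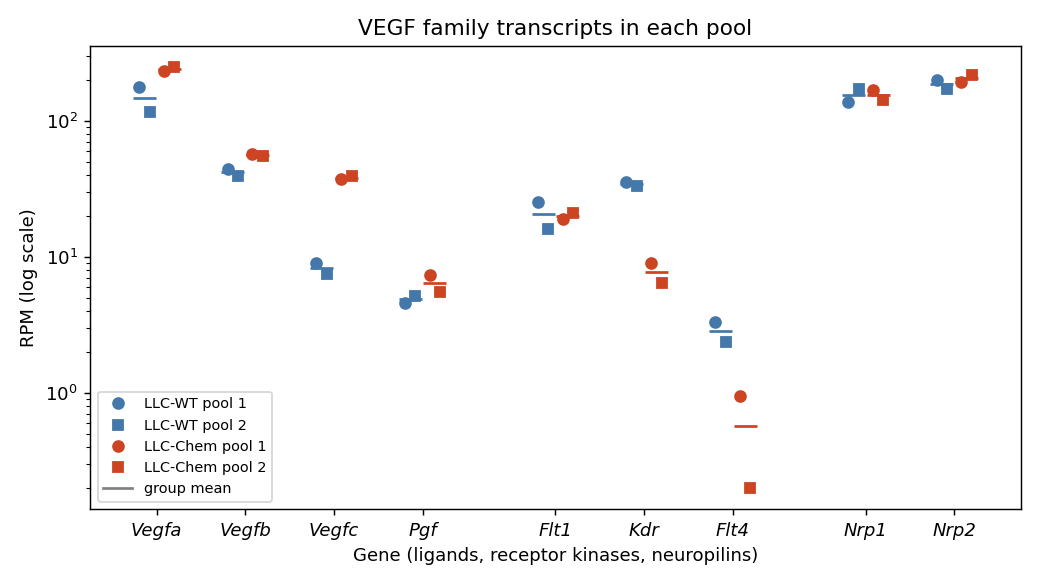
RPM of the 9 VEGF genes in each of the 4 pools on a log axis, with a short line at each group's mean (2 pools). Vegfc lies at 7.45 and 8.995 RPM in the LLC-WT pools and at 37.0 and 39.4 RPM in LLC-Chem pools, Kdr and Flt4 lie lower in both LLC-Chem pools, and the Flt1, Nrp1 and Nrp2 points overlap.

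Vegfc (ENSMUSG00000031520, chr8:54077606-54187096, plus strand), the lymphangiogenic ligand, measured 8.995 and 7.45 RPM in the LLC-WT pools and 37.0 and 39.4 RPM in LLC-Chem pools. The pools of a group were close together and the groups far apart. The mean rose 4.65-fold, from 8.22 ± 1.10 to 38.2 ± 1.70 RPM (SD, n = 2), with a log2 fold change of 2.16 (SE 0.15, adjusted p = 0.00665, limma). By size this rise ranked 46 among all 13694 genes. The call was lost in limma without the filter on low values (adjusted p = 0.105).

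Vegfa (ENSMUSG00000023951, chr17:46016993-46032369, minus strand), the main driver of new blood vessels, measured 177.6 and 116.1 RPM in the LLC-WT pools and 232.6 and 247.9 RPM in LLC-Chem pools. Both LLC-Chem pools were higher, but the LLC-WT pools differed from each other by more than the nearer LLC-Chem pool differed from the nearer of them. The means were 146.9 ± 43.5 and 240.2 ± 10.8 RPM (SD, n = 2), the log2 fold change was 0.74 (SE 0.21, 95% interval 0.23 to 1.25), and the adjusted p of 0.0533 (limma) missed the threshold. Among other settings, it passed with trimmed mean scaling (0.0407), median-of-ratios scaling (0.0433), and edgeR's quasi-likelihood test (0.0484) and DESeq2 (0.0041) on reads recovered from the RPM. It missed in limma with a pseudocount of 0.1 (0.0542) or 1 (0.0533) and without the trend in variance (0.0882). It also missed without the filter on low values (0.168) and with a minimum mean of 5 RPM (0.0556).

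Vegfb (ENSMUSG00000024962, chr19:6982473-6987651, minus strand), a ligand of VEGFR1 linked to cardiac and metabolic tissues, measured 44.0 and 39.3 RPM in the LLC-WT pools and 56.5 and 55.3 RPM in LLC-Chem pools. The difference was small but the pools of each group lay close together. The mean rose 1.34-fold, from 41.7 ± 3.29 to 55.9 ± 0.847 RPM (SD, n = 2; log2 fold change 0.42, SE 0.11, adjusted p = 0.0463, limma). Among other settings, the call was lost when limma was run without the trend in variance (adjusted p = 0.0778) or without the filter on low values (0.115).

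Pgf (ENSMUSG00000004791, chr12:85166635-85177790, minus strand), which encodes placental growth factor, measured 4.60 and 5.20 RPM in the LLC-WT pools and 7.40 and 5.50 RPM in LLC-Chem pools. The groups did not overlap, yet the LLC-Chem pools differed more from each other than the lower of them differed from the LLC-WT pools. The log2 fold change was 0.35 (SE 0.22, 95% interval -0.18 to 0.89, adjusted p = 0.262, limma). Figf, the files' name for the gene of VEGF-D and no member of the 9, measured 44.2 and 57.0 RPM in the LLC-WT pools against 65.5 and 65.1 RPM in LLC-Chem pools (log2 fold change 0.38, SE 0.14, adjusted p = 0.111, limma).

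Kdr (ENSMUSG00000062960, chr5:75932827-75978458, minus strand), the principal signalling receptor for VEGF-A, measured 35.2 and 33.2 RPM in the LLC-WT pools and 9.04 and 6.40 RPM in LLC-Chem pools. Both LLC-Chem pools were far below both LLC-WT pools. The log2 fold change was -2.10 (SE 0.19, 95% interval -2.58 to -1.61, adjusted p = 0.0093, limma), and LLC-WT tumors had 4.43 times the mean of LLC-Chem tumors. By size the fall ranked 129 of 13694, and without the filter the call was lost here too (adjusted p = 0.105, limma).

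Flt4 (ENSMUSG00000020357, chr11:49609263-49652739, plus strand), the VEGF-C receptor typical of lymphatic and sprouting endothelium, was the scarcest member, at 3.35 and 2.35 RPM in the LLC-WT pools and 0.95 and 0.20 RPM in LLC-Chem pools. These values rest on about 103, 66, 31 and 6 reads, recovered only to the nearest read or so because each step of the deposited values covers 1.4 to 1.7 reads. The exact Poisson 95% intervals from these reads, for counting error alone, were 2.73 to 4.05 and 1.79 to 2.95 RPM in the LLC-WT pools and 0.62 to 1.30 and 0.066 to 0.39 RPM in LLC-Chem pools. The LLC-Chem intervals lay below the LLC-WT intervals, although the LLC-Chem pools also differed from each other beyond counting. Its mean of 2.85 RPM in the LLC-WT pools, against 0.575 in LLC-Chem pools, is what carried it past the filter of 1 RPM. Flt4 fell with a log2 fold change of -1.72 (SE 0.41, adjusted p = 0.0382, limma). This call was lost with edgeR on recovered reads (adjusted p = 0.0613) and in limma without the trend (0.0517) or the filter (0.145).

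Flt1 (ENSMUSG00000029648, chr5:147561604-147726011, minus strand), whose product binds VEGF-A tightly and signals weakly and is also made by macrophages, measured 25.1 and 16.0 RPM in the LLC-WT pools and 18.9 and 20.9 RPM in LLC-Chem pools. Both LLC-Chem pools lay between the LLC-WT pools. The log2 fold change was -0.01 (SE 0.23, adjusted p = 0.967, limma), and its sign turned under either other scaling. The 95% interval of -0.59 to 0.56 leaves room for a moderate difference either way. It does not reach the interval of Kdr. Soluble and membrane-bound forms of Flt1 share a gene and were not separated by the gene counts, nor were the splice forms of Vegfa.

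Nrp1 (ENSMUSG00000025810, chr8:128358604-128503363, plus strand), a coreceptor of VEGF-A and semaphorin 3A, measured 137.2 and 170.0 RPM in the LLC-WT pools and 169.3 and 141.7 RPM in LLC-Chem pools. Nrp2 (ENSMUSG00000025969, chr1:62703285-62818695, plus strand), a coreceptor of VEGF-C, measured 200.5 and 171.2 RPM in the LLC-WT pools and 193.2 and 215.7 RPM in LLC-Chem pools. Groups overlapped for both. The log2 fold changes were 0.02 for Nrp1 (95% interval -0.35 to 0.39, adjusted p = 0.928, limma) and 0.14 for Nrp2 (95% interval -0.17 to 0.45, adjusted p = 0.426, limma). The exons of the other members shared no base with another gene, while 0.8% of those of Nrp1 lay under Mir1903.

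**Figure D2:**
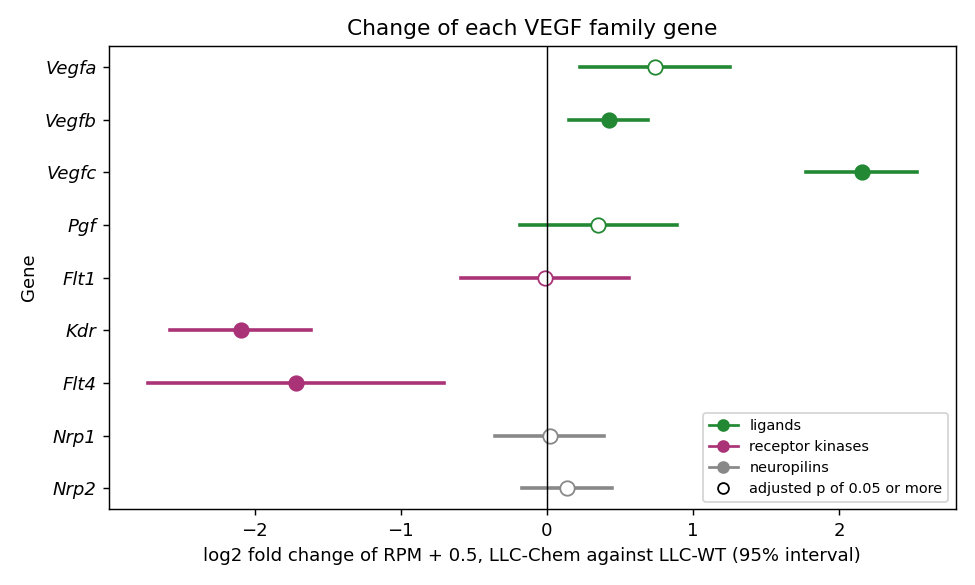
Log2 fold change of RPM + 0.5 in LLC-Chem against LLC-WT tumors for each gene, with its 95% interval from limma (2 pools per group), filled where the adjusted p is under 0.05. Vegfc at 2.16 and Kdr at -2.10 lie at opposite ends, and the intervals of Pgf, Flt1, Nrp1 and Nrp2 span 0.

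**Figure D3:**
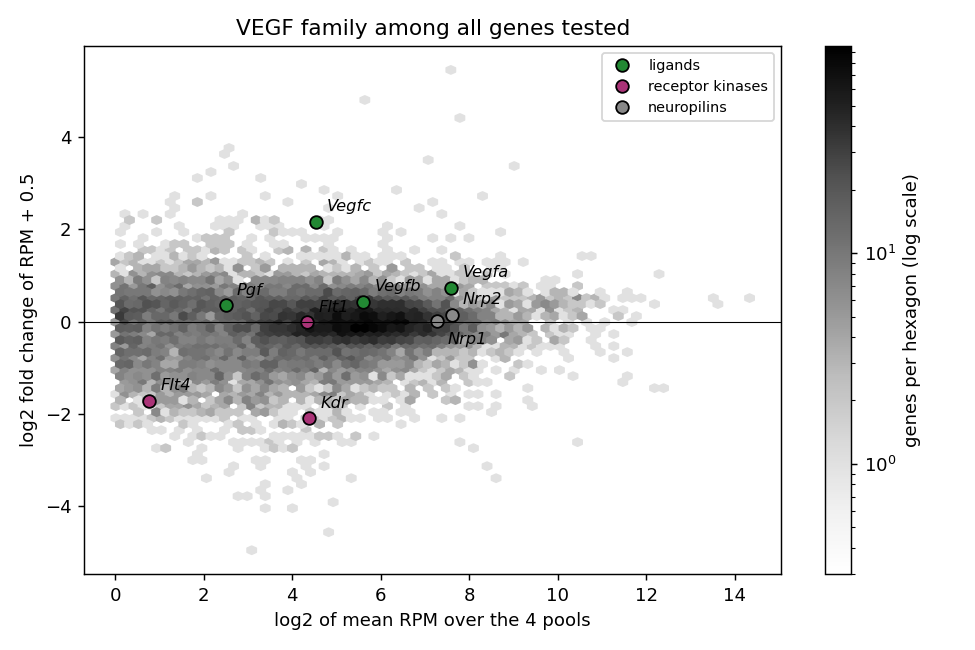
Log2 fold change against the log2 of mean RPM for the 13694 genes tested, in grey by density, with the 9 members as colored points. Vegfc lies toward the upper edge and Kdr toward the lower edge of genes of their level, Flt4 is at the low end of expression, and Flt1, Nrp1 and Nrp2 sit by the line at 0.

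To compare genes with one another, levels were divided by the length of their exons in kilobases (kb). In LLC-WT tumors the order of mean levels in RPM per kb was Vegfa (34.3 ± 10.1), Vegfb (25.9 ± 2.05), Nrp2 (15.7 ± 1.75), Nrp1 (15.7 ± 2.37), Kdr (3.79 ± 0.157), Vegfc (3.36 ± 0.447), Pgf (1.69 ± 0.146), Flt1 (1.53 ± 0.476) and Flt4 (0.346 ± 0.0859; all SD, n = 2). Within this order Vegfa and Vegfb, Nrp2 and Nrp1, Kdr and Vegfc, and Pgf and Flt1 did not differ beyond their spread. In LLC-Chem tumors Vegfa (56.1 ± 2.52 RPM per kb) and Vegfb (34.8 ± 0.528) again led. Vegfc, at 15.6 ± 0.693 RPM per kb, now stood with Nrp2 (17.3 ± 1.35) and Nrp1 (15.9 ± 1.99), of which neighbours did not differ beyond their spread. Pgf (2.22 ± 0.463 RPM per kb), Flt1 (1.48 ± 0.107), Kdr (0.855 ± 0.207) and Flt4 (0.0698 ± 0.0644) followed, so that Kdr came after Flt1 rather than before it.

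Summed per kb, the 5 ligands with VEGF-D stood at 92.5 and 80.1 RPM per kb in the LLC-WT pools and 134.4 and 137.3 in the LLC-Chem pools. Vegfc made up 3.97% and 3.80% of that sum in the LLC-WT pools and 11.3% and 11.7% in the LLC-Chem pools. The 3 receptor kinases summed to 6.16 and 5.15 RPM per kb in the LLC-WT pools and 2.52 and 2.28 in the LLC-Chem pools. Ligand sums were thus higher and receptor sums lower in both LLC-Chem pools. The share of Kdr in the receptor sum was 63.2% and 71.4% in the LLC-WT pools and 39.8% and 31.0% in the LLC-Chem pools, whereas that of Flt1 was 30.2% and 23.1% against 55.6% and 67.9%.

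Ratios of ligand to receptor, taken within a pool from levels per kb, were described without a test. Vegfa stood at 10.6 and 7.38 times Kdr in the LLC-WT pools and at 54.2 and 81.7 times in the LLC-Chem pools, a mean difference of 2.91 on the log2 scale. Against Flt1, Vegfa stood at 22.3 and 22.8 times in the LLC-WT pools and 38.8 and 37.3 times in the LLC-Chem pools, a mean log2 difference of 0.76. The ratio of Vegfa to Flt1 was therefore nearly the same in pools of one group, although Vegfa itself differed between the LLC-WT pools. Vegfc and Kdr had like levels in the LLC-WT pools, with ratios of 0.943 and 0.827, but ratios of 15.1 and 22.7 in the LLC-Chem pools. Vegfc to Flt4 went from 9.03 and 10.7 in the LLC-WT pools to 131.1 and 663.0 in the LLC-Chem pools, the last of which rests on about 6 reads of Flt4. Vegfb to Flt1 was 14.7 and 20.6 in the LLC-WT pools and 25.2 and 22.2 in the LLC-Chem pools, while Pgf to Flt1 overlapped between the groups.

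The endothelial markers listed were lower alongside Kdr and Flt4. Of 14 endothelial genes 11 fell and all 14 lay lower in both LLC-Chem pools (13.5% and 39.3% of all genes), with a median log2 fold change of -1.95 where all genes tested had -0.04, and their summed level was 232.2 to 312.5 RPM in the LLC-WT pools and 51.0 to 89.4 RPM in LLC-Chem pools. The 14 were chosen with earlier results of these data known, so their counts do not measure how uniform the fall was among endothelial genes. One of the 14, Sox17, passed the filter on low values only through its LLC-WT level. Among them, Pecam1, the gene of CD31, measured 71.2 and 46.2 RPM in the LLC-WT pools and 18.5 and 9.34 RPM in LLC-Chem pools, and Cdh5, the gene of VE-cadherin, measured 51.3 and 34.1 against 9.84 and 5.25 RPM. Robo4 and Ecscr, both endothelial membrane proteins, had log2 fold changes of -2.28 and -1.69 (limma adjusted p = 0.0185 and 0.0178). In whole tumors, fewer cells of a type and less RNA per cell cannot be told apart.

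Set against Pecam1 within a pool, per kb, Kdr stood at 0.341 and 0.496 in the LLC-WT pools and 0.337 and 0.472 in the LLC-Chem pools. These ratios overlapped, with a mean log2 difference of -0.04, although Kdr itself fell by 2.10. Flt4 to Pecam1 was 0.0356 and 0.0385 in the LLC-WT pools and 0.0389 and 0.0162 in the LLC-Chem pools, which also overlapped. Flt1 to Pecam1 was 0.163 and 0.160 in the LLC-WT pools but 0.471 and 1.03 in the LLC-Chem pools, a mean log2 difference of 2.11. Against Cdh5 the same held, with overlap for Kdr (0.319 and 0.453 against 0.428 and 0.567) and Flt4, and none for Flt1 (0.152 and 0.147 against 0.597 and 1.24). Nrp1 and Nrp2 relative to Pecam1 were higher in both LLC-Chem pools by 2.15 and 2.26 on the log2 scale. These ratios and those of Flt1 largely restate the lower Pecam1 and Cdh5 (-2.08 and -2.46 in log2). Nrp1, Nrp2 and Flt1 themselves overlapped between the groups. The ratio of Kdr to Flt1 itself was 2.09 and 3.09 in the LLC-WT pools and 0.716 and 0.457 in the LLC-Chem pools.

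**Figure D4:**
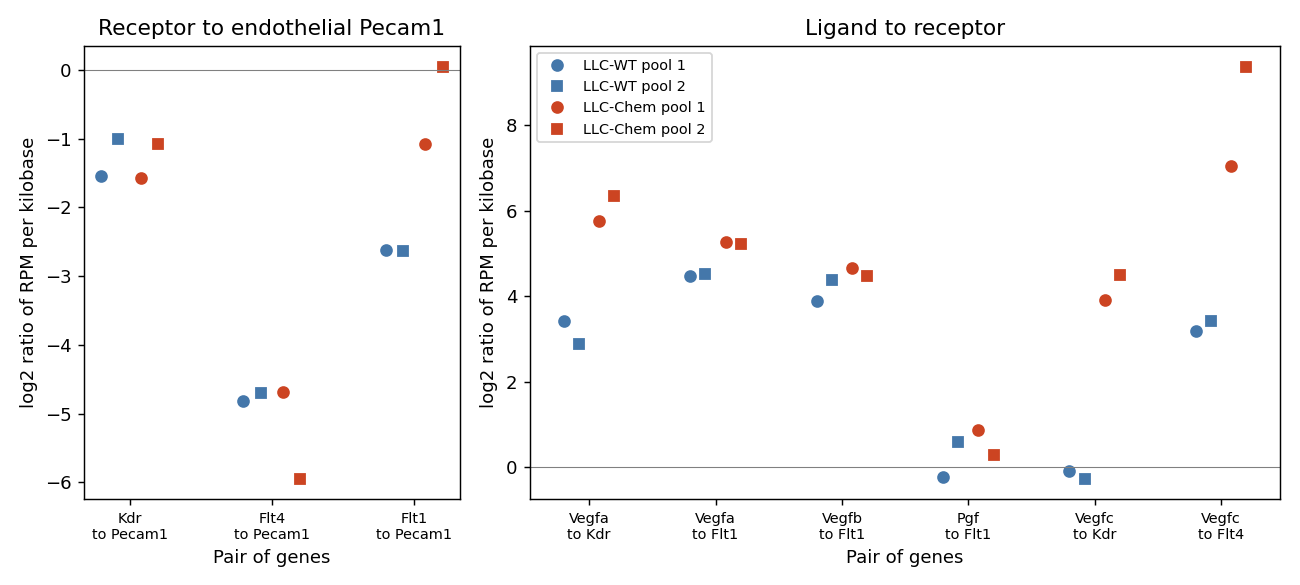
Log2 ratios of levels in RPM per kb within each of the 4 pools, receptors to Pecam1 at left and ligands to receptors at right. Kdr to Pecam1 and Flt4 to Pecam1 overlap between the groups, Flt1 to Pecam1 is higher in both LLC-Chem pools, and all ligand to receptor pairs shown except Pgf to Flt1 are higher in both LLC-Chem pools.

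Other cell types that carry these genes were measured as well. Of 6 mural cell markers tested 4 fell, namely Pdgfrb, Rgs5, Cspg4 and Abcc9 (13.5% of all genes), and the 7 on the list summed to 135.5 to 178.4 RPM in the LLC-WT pools and 45.8 to 67.4 RPM in LLC-Chem pools. Of 7 macrophage markers, Itgam and Csf1r fell and 6 lay lower in both LLC-Chem pools (13.5% and 39.3% of all genes), with summed levels of 2330 to 2919 RPM in the LLC-WT pools and 1287 to 1984 RPM in LLC-Chem pools. The part of these cells in any result was not tested. Among lymphatic markers, which bear on Vegfc and Flt4, Lyve1 rose from 22.4 and 18.1 to 176.7 and 120.4 RPM (2.83 in log2, limma adjusted p = 0.00665) and Pdpn fell (-0.64, adjusted p = 0.0178). Both are also made outside lymphatic vessels. The lymphatic regulator Prox1 was at 0.30 and 0.20 RPM in the LLC-WT pools and 0.10 and 0.05 RPM in LLC-Chem pools, below the filter for testing. Mmrn1 was at most 0.05 RPM and Ccl21a at 0 in every pool, so that transcripts defining lymphatic endothelium were scarce or absent.

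The 9 other HIF targets listed were higher alongside Vegfa. They were chosen with earlier results of these data known and are only some of the genes that HIF factors induce. How uniform the change was over HIF targets at large was therefore not tested. Of these 9, 6 rose, none fell and all 9 were higher in both LLC-Chem pools (9.54% of all genes rose and 33.1% were so placed). Their median log2 fold change was 0.93, against 0.74 for Vegfa. Adm, the vasoactive peptide adrenomedullin, had a log2 fold change of 1.65 (limma adjusted p = 0.00665), Egln3, a HIF prolyl hydroxylase, 1.10 (0.00909), Pdk1, which limits entry of pyruvate to mitochondria, 0.93 (0.0126), and Bnip3, a mitophagy receptor, 1.08 (0.0144). Of the HIF subunits, Arnt rose (0.63, adjusted p = 0.0185) and Epas1, the gene of HIF-2α, which is prominent in endothelium, fell (-1.56, adjusted p = 0.0222), while Hif1a had a log2 fold change of -0.09.

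Transcripts were also measured for proteins that process the VEGF ligands or share their coreceptors, where, as above, 9.54% of all genes were called higher and 13.5% lower. Of 4 tested genes for the activation of VEGF-C and VEGF-D, Pcsk5, a proprotein convertase, fell from 34.6 and 52.3 to 8.95 and 8.995 RPM (-2.19 in log2, limma adjusted p = 0.0101), and no other was called. Of 7 class 3 semaphorins, which compete for the neuropilins, Sema3a alone was called and rose from 38.7 and 23.4 to 97.8 and 110.1 RPM (1.77 in log2, adjusted p = 0.0141). Of 5 plexins, the partners of neuropilins in semaphorin signalling, Plxna3 rose (0.91, adjusted p = 0.0143) and Plxna4 and Plxnd1 fell (-2.74 and -0.49, adjusted p = 0.0093 and 0.043). The neuropilins themselves, between these ligands and partners, were not called.

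Downstream of the receptors, 4 of 6 phosphatases that act on VEGFR2 fell and none rose, with a median log2 fold change of -0.75, where 13.5% of all genes were called lower. They were Ptprb (-2.04, adjusted p = 0.0141, limma), the endothelial phosphatase VE-PTP, Ptpn1 (-0.73, 0.0245), Ptpn6 (-1.28, 0.0299), which is chiefly a blood cell enzyme, and Ptprj (-0.78, 0.0397). Of 32 genes for VEGFR2 signalling 5 rose and 6 fell, with a median of -0.08, where 9.54% and 13.5% of all genes were called higher and lower. Among those that rose were Pik3r1 (0.99, 0.0132), Plcg1 (0.65, 0.0159) and Ppp3ca (0.83, 0.0163), a phosphoinositide 3-kinase subunit, a phospholipase and a calcineurin subunit. Among those that fell were Sh2d2a (-2.07, 0.0228), an adaptor also found in T cells, Pxn (-0.47, 0.0321), Nos3 (-1.41, 0.0348), the endothelial nitric oxide synthase, and Akt1 (-0.50, 0.0378). Sh2d2a and Nos3 passed the filter on low values only through their LLC-WT levels, of 3.75 and 2.85 RPM and of 3.60 and 2.50 RPM. Of 12 genes that VEGF induces in endothelial cells, Adamts1 and Vcam1 rose (1.86 and 1.13, adjusted p = 0.0133 and 0.0274, limma; 9.54% of all genes). Sele, Plaur and Icam1 fell (-1.93, -0.68 and -1.13, adjusted p = 0.0371, 0.0447 and 0.0491; 13.5% of all genes), with a median of -0.39. Both LLC-Chem pools lay below both LLC-WT pools for 6 of the 12 (39.3% of all genes) and above them for 3 (33.1%). Esm1 (-1.93, not called) counts in this median. It passed the filter on low values only through its LLC-WT levels, of 6.50 and 2.50 RPM. Most of the 12 genes are made by many cell types.

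**Figure D5:**
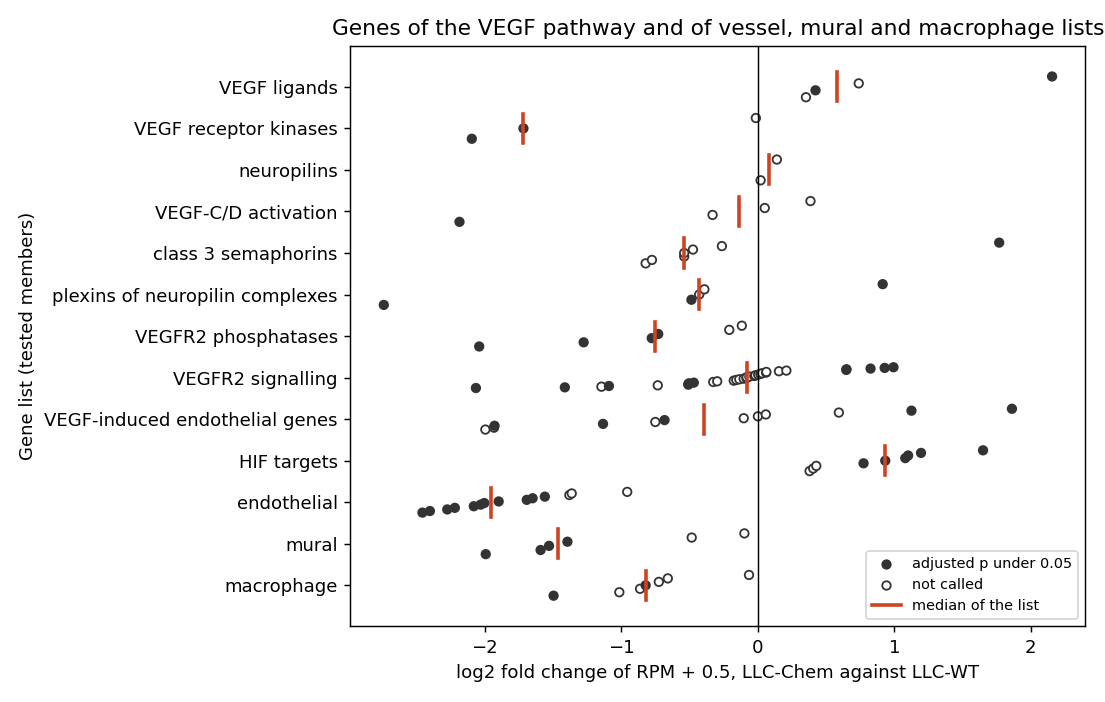
Log2 fold change of each tested gene by list, filled where the limma adjusted p is under 0.05, with a bar at the list's median. Endothelial genes center on -1.95, HIF targets on 0.93 and VEGFR2 signalling genes on -0.08.

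The genes nearest to Vegfa and Kdr were found by the Euclidean distance between log2(RPM + 0.5) profiles, each centered on its mean over the 4 pools. Nearest to Vegfa were Gsta4 (distance 0.033), Gm10036 (0.046), Klhl15 (0.048), Gm9493 (0.065) and Ptpn4 (0.080). Nearest to Kdr were Slc38a4 (0.135), C5ar2 (0.147), Cyfip2 (0.159), Rgs2 (0.175) and Ptk2b (0.180). With 4 pools in 2 groups such closeness describes these libraries only, and none of the 14 endothelial markers was among the 5 nearest to Kdr.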

How the data were processed

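RNA was measured in 4 pools of 3 subcutaneous tumors, 2 per group, grouped by the sample labels. Paired-end reads were aligned by the authors with STAR to GRCm38.p4 (mm10) and counted with HTSeq, and they deposited RPM for 47729 genes. Tool versions and the use of strand in counting are not given in the sources used here. Every value is a whole step (tolerance 0.1), which points to reads scaled to 20000000 and rounded up, so that each step covers 1.4 to 1.7 reads and reads were recovered to the nearest read or so, and library totals of 28470000 to 33990000 reads were fitted.

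From the RPM, limma 3.58.1 in R 4.3.3 (lmFit, eBayes with trend) was run on log2(RPM + 0.5) for genes averaging 1 RPM or more, since RPM are not counts, with Benjamini-Hochberg adjustment and calls at 0.05. On simulated data for 13544 genes it recovered 51 of 100 genes changed by a log2 of 1 and 88 of 97 changed by 2, and 8.6% of 152 calls were false. The simulation changed far fewer genes than were called in the data, so these shares need not hold for the real fit. Alternatives were pseudocounts, scalings, filters, eBayes without trend, a replicate block, leaving out each pool, and edgeR 4.0.16 and DESeq2 1.42.0 on recovered reads. The crossed block and a second choice of gene length were added after seeing the data.

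The 9 members and all lists were chosen with earlier results of these data known. Every member was described in full. Of the other lists, counts were given and at most 4 called genes per list and direction, with the lowest adjusted p, besides Figf and the reference genes Pecam1 and Cdh5. A result that this rule would name is not reported here. Values named outside this rule, such as those of Hif1a, Prox1, Mmrn1, Ccl21a and the lung markers, were chosen after they were seen. Positions and exon lengths are from GENCODE M21, which holds 99.1% of the identifiers, and promoters from RefSeq on GRCm38, which matched all 9 members. Summaries used matplotlib 3.10.9, pandas 2.3.3 and numpy 2.4.6 under Python 3.11.15.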

Additional observations from a re-analysis of the deposited data

How the results depend on the processing

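Over all genes limma called 1306 higher and 1848 lower. It called 1 and 0 without the filter on low values, where 26260 genes were tested and 3394 and 4003 had an unadjusted p under 0.05, and 549 and 1064 with the replicate block. With any 1 pool left out 0 genes were called in either direction (0 to 0, also for the members), with 998 to 2359 genes higher and 1580 to 2823 lower at an unadjusted p under 0.05, so these fits say nothing about the members' calls. In limma without the filter 0 members were called in either direction, although 3 higher and 2 lower had an unadjusted p under 0.05, and edgeR and DESeq2 with the filter called members in both directions. Of the members, 2 were called higher and 2 lower. The higher count was 1 in limma without the trend or with the replicate block, which lost Vegfb (adjusted p = 0.0939 with the block), and the lower count was 1 without the trend, with edgeR, and with a minimum mean of 5 RPM, which drops Flt4.

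With a pool left out, log2 fold changes ran from 0.43 (without LLC-WT pool 2) to 1.04 for Vegfa, 0.34 to 0.50 for Vegfb, 0.15 (without LLC-Chem pool 1) to 0.55 for Pgf, 0.03 (without LLC-WT pool 2) to 0.25 for Nrp2, 2.03 to 2.28 for Vegfc, -2.33 to -1.86 for Kdr and -2.24 to -1.19 for Flt4. Flt1 ran from -0.33 to 0.30 (0.30 without LLC-WT pool 1, 0.06 without LLC-Chem pool 1) and Nrp1 from -0.13 to 0.17 (-0.13 without LLC-WT pool 1, -0.11 without LLC-Chem pool 1). Flt1 was also reversed with trimmed mean scaling (0.031), median-of-ratios scaling (0.022) and edgeR (0.0039). The cause was not tested. With the length of the transcript with the longest coding sequence, Kdr to Flt1 averaged 0.99 and -1.17 (log2) in the LLC-WT and LLC-Chem pools, against 1.35 and -0.81 with all exons.

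Same-numbered pools share only a number, and their deviations correlated at -0.14. With the numbers crossed, 1579 genes were called higher and 2320 lower. Vegfa missed the threshold with the replicate block (limma adjusted p = 0.0774) and passed with the crossed block (0.0248). Depth limits Flt4, whose lowest value is about 6 reads.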
